A study of Rattus norvegicus with 8 samples.

Results

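The kinesin genes, which encode the microtubule motor superfamily, were followed through the 8 RNA libraries of compartmentalized rat hippocampal cultures. Members were taken by symbol, as every Kif or Kifc symbol in the count table, whatever its value. The pattern returned 40 genes among 28909 symbols. Of these, 16 belonged to the Kif1, Kif3, Kif5, Kif13, Kif17, Kif21 and Kif26 families, here called transport kinesins. Most of these families carry cargo, whereas the Kif26 members are atypical and were placed in the class by family name. A further 12 act on the spindle or midbody (Kif4a, Kif11, Kif14, Kif15, Kif18a, Kif18b, Kif20a, Kif20b, Kif22, Kif23, Kif2c and Kifc1, here called mitotic kinesins), and the remaining 12 were kept apart as other kinesins. Of the 40, 38 passed the filter on low counts (above 20 reads in 2 or more libraries) and were among the 14309 genes tested. Kif12 and Kif2b had 0 reads in all 8 libraries and were not tested.

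The libraries came from primary hippocampal neurons of embryonic Sprague-Dawley rats that grew on porous inserts, so that somata stayed on the upper side and axons and dendrites were collected below. Cultures received picrotoxin (PTX), a blocker of the GABA-A receptor that raises network activity, or its vehicle, absolute ethanol, for 48 h, from day 18 to day 20 in vitro. The 4 conditions were thus control somata, PTX somata, control processes and PTX processes, with 2 libraries each. Nothing in the labels states that the 2 libraries of a condition came from separate cultures, so p-values measure the spread between these samples, which may be technical. Such cultures hold glia beside neurons, and both compartments were taken in bulk: fewer cells of a type and less RNA per cell cannot be told apart.

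Most kinesins walk toward the plus end of microtubules, which in axons points away from the soma. Kif5 heavy chains, Kif1 and the Kif3 complex move vesicles, organelles and RNA granules along neurites, whereas the mitotic members slide, depolymerize or bundle spindle microtubules, move chromosomes or build the midbody of dividing cells. Postmitotic neurons have left the cell cycle, although several mitotic kinesins are also known to shape neuronal microtubules. A question of the design is whether RNA levels in somata and in processes respond alike to a lasting rise in activity.

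Libraries held 12290890 to 18455662 assigned reads. Nuclear genes took 73.3 to 77.4% of the reads in somata and 27.5 to 31.5% in processes, and the rest came from the mitochondrial genome. Levels are given as CPM, read counts scaled by library size after TMM adjustment,, and fold changes as log2 values from a negative binomial model, with the standard error (SE) in that model. A gene was called at an adjusted p under 0.05 over all genes tested. CPM is not corrected for transcript length, so no level is compared between genes.

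The levels of mitotic kinesins were higher after PTX in both compartments, although few members passed the test singly. In somata 2 of the 12 rose (Kif18a and Kif23), in processes 3 of the 12 rose (Kif14, Kif18a and Kif22), and none fell in either. Among all genes tested, 2.09% were called raised and 1.5% lowered in somata, and 1.64% raised and 2.1% lowered in processes. Every one of the 12 had a fold change above 0 in each compartment, against 48.9% of all genes in somata and 48.4% in processes. The median log2 fold change of the class was 0.53 in somata and 0.74 in processes, with a median of -0.01 over all genes in either compartment.

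Promoter sequences are shown for the 3 mitotic kinesins that changed most in processes among those holding the letters TTTGAA, which make up the cell cycle genes homology region of many promoters used in the G2 and M phases. A CCAAT box, the site of NF-Y, often lies upstream of it. The RefSeq promoter table on GRCr8 held 31 promoters for 30 of the 40 genes, and each line gives the 130 bases directly before the annotated start on the strand of the gene. Capitals mark TTTGAA or CCAAT on either strand. The stretch of Kif22 lies at chr1:191080879-191081008 on the minus strand, that of Kif20b at chr1:241840886-241841015 on the plus strand, and that of Kif23 at chr8:71320585-71320714 on the minus strand.
Kif22: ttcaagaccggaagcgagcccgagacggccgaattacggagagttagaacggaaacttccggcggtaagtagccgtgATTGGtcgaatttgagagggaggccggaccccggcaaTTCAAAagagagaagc
Kif20b: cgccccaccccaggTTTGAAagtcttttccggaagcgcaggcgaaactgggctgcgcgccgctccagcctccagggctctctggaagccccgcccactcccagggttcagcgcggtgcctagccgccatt
Kif23: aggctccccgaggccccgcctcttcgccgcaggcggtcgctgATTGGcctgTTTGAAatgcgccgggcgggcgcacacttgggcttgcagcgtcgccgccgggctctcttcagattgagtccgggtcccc
Over windows from 250 bases before to 50 bases after the start, TTTGAA was present in 6 of 12 mitotic promoters (50%), in 1 of 12 transport promoters (8.33%) and in 18.3% of the 33469 promoters of the table, both strands searched. CCAAT was present in 7 of the 12 mitotic promoters (58.3%), in 4 of the 12 transport promoters (33.3%) and in 37.5% of all. The core TGCGCA of the NRF1 site was found in 0 of the 12 mitotic and 2 of the 12 transport promoters (16.7%), against 7.24% of all. The 12 mitotic promoters belonged to 11 genes, and the 12 transport promoters to 12 genes. These matches describe the letters of the windows and no binding was measured. Kif14 was not among the genes matched, and Kif18a held no TTTGAA in its window.

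Kif18a, a plus-end motor that damps chromosome oscillation at the metaphase plate, was the member called in both compartments. Its level was 5.44 and 5.29 CPM in control somata and 10.9 and 13.4 CPM in PTX somata, and 5.24 and 4.34 CPM in control processes and 9.42 and 10.3 CPM in PTX processes. Control and PTX libraries did not overlap in either compartment. The log2 fold change was 1.18 ± 0.16 (SE, n = 2 libraries per condition, adjusted p = 0.0032) in somata and 1.04 ± 0.20 (adjusted p = 0.0200) in processes. The call in somata was kept without any 1 library, with adjusted p up to 0.0474, whereas the call in processes was lost without any 1 of the 4 process libraries, with adjusted p from 0.0684 to 0.103.

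Kif23, a subunit of the centralspindlin complex of the cleavage furrow, was at 5.82 and 5.48 CPM in control somata and at 8.70 and 10.5 CPM in PTX somata. Both PTX libraries lay above both controls, with a log2 fold change of 0.76 ± 0.17 (adjusted p = 0.0341). In processes its level was 5.35 and 7.05 CPM in control and 9.88 and 11.1 CPM with PTX, again without overlap, and the log2 fold change of 0.76 ± 0.20 did not pass (adjusted p = 0.0691). The call in somata was lost with any 1 of the 4 somatic libraries left out (adjusted p 0.0779 to 0.259) and in DESeq2 (adjusted p = 0.0607).

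Kif14, which works with citron kinase in cytokinesis, was at 3.01 and 4.82 CPM in control processes and at 8.73 and 8.04 CPM in PTX processes. In somata it was at 2.85 and 3.17 CPM in control and at 4.78 and 5.84 CPM with PTX. PTX libraries were above control libraries in both compartments, with a log2 fold change of 1.10 ± 0.25 (adjusted p = 0.0395) in processes and 0.81 ± 0.22 (adjusted p = 0.0750) in somata. Kif22, the chromokinesin that pushes chromosome arms from the poles, was at 4.57 and 5.87 CPM in control processes and at 10.3 and 10.7 CPM in PTX processes. In somata Kif22 was at 6.76 and 7.83 CPM in control and at 9.82 and 11.8 CPM with PTX. These groups did not overlap either, and the log2 fold change of Kif22 was 1.01 ± 0.20 (adjusted p = 0.0235) in processes and 0.56 ± 0.16 (adjusted p = 0.0926) in somata. Both calls in processes were lost without replicate 1 of control processes (adjusted p = 0.254 for Kif14 and 0.182 for Kif22), without replicate 1 of PTX processes (0.155 and 0.0904) and without replicate 2 of PTX processes (0.118 and 0.106), and that of Kif14 also without either control library of somata (0.0573 and 0.0575).

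The remaining 8 mitotic kinesins did not pass in either compartment. Their log2 fold changes ran from 0.31 for Kif15 to 0.66 for Kif2c in somata, and from 0.27 for Kif15 to 0.97 for Kif20b in processes. Kif15, which backs up the bipolar motor Kif11, was the 1 mitotic member whose control and PTX libraries overlapped, in both compartments. For the other 11 both PTX libraries were above both control libraries in somata and again in processes, a separation found for 24.0% of all genes in somata and 20.1% in processes. The depth behind these values was low: Kif14 rested on 67 and 81 reads in control somata and on 27 and 41 in control processes.

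**Figure D1:**
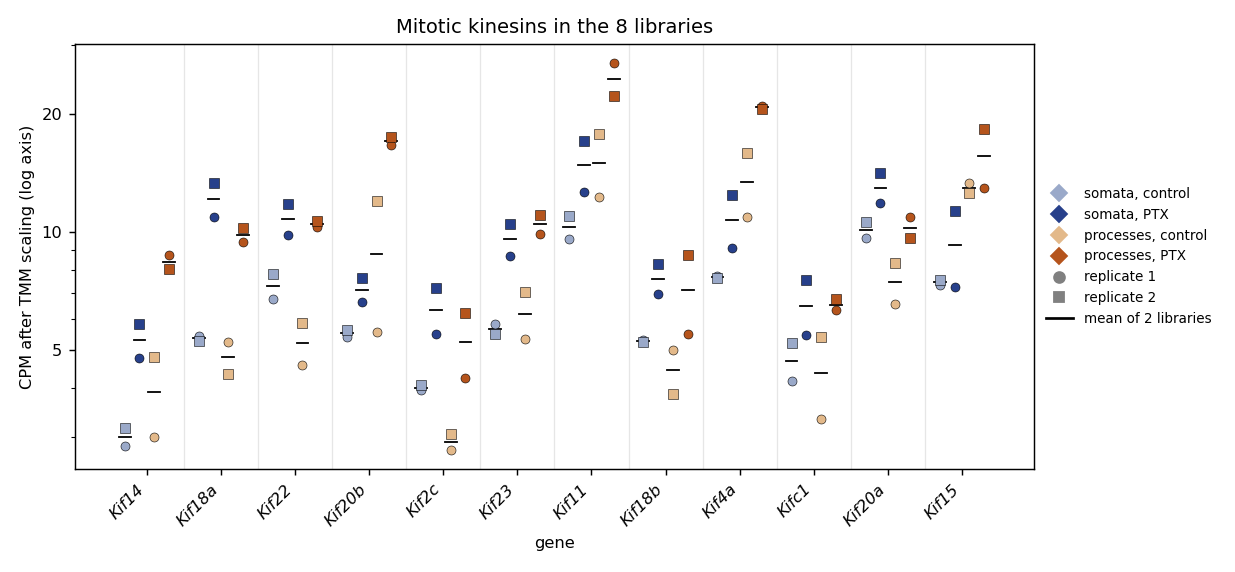
Level of each of the 12 mitotic kinesins (CPM after TMM scaling, log axis) in the 8 libraries, ordered by the PTX change in processes; circles are replicate 1, squares replicate 2, and lines the mean of 2 libraries. In both compartments PTX libraries sit above control libraries for all members but Kif15.

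A model that also held the replicate number as a block called more of them. With the block 8 of the 12 mitotic kinesins were raised in somata (Kif11, Kif14, Kif18a, Kif18b, Kif22, Kif23, Kif2c and Kif4a, adjusted p 3.2e-06 to 0.0396) and 8 in processes (Kif11, Kif14, Kif18a, Kif20b, Kif22, Kif23, Kif2c and Kif4a, adjusted p 0.000848 to 0.0395). Under the same model 7.21% of all genes were called raised and 6.79% lowered in somata, and 5.1% raised and 6.09% lowered in processes. Without the block, kinesin calls in processes went from 3 to 0 when replicate 1 of control processes, replicate 1 of PTX processes or replicate 2 of PTX processes was left out. Calls in somata went from 2 to 1 without any 1 of the 4 somatic libraries.

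No difference in the PTX response between compartments was detected for any kinesin. The interaction was called for 0 of 38 kinesins by edgeR's quasi-likelihood test, by its likelihood ratio test, by DESeq2 and with the block. Of all genes tested the main test called 0.0%, the likelihood ratio test and DESeq2 4 genes each and the model with the block 15 genes. At an unadjusted p under 0.05 in the main test there were 0 kinesins, next to 1.59% of all genes higher and 2.41% lower. With so small a share of all genes, 0 of 38 does not set the kinesins apart. Kif20b, a motor of late mitosis, had the largest interaction of the mitotic class, with a log2 difference of 0.60 ± 0.37 (adjusted p = 1). With 2 libraries per condition the SE of this difference was 0.24 to 0.37 over the mitotic class, so differences of that size could not be told from 0.

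Some other genes of mitosis rose as well. Of 24 tested members of a list of 25 non-kinesin proliferation genes, 3 rose in somata and 11 in processes, and none fell. Among all genes tested, 2.09% were called raised in somata and 1.64% in processes. The median log2 fold change of the list was 0.46 in somata and 0.85 in processes, next to -0.01 for all genes in either. With the block 12 rose in somata and 17 in processes, next to 7.21% and 5.1% of all genes. In somata 1, the septin-binding Anln, fell with the block (log2 fold change -0.94, adjusted p = 0.0050 with the block and 0.0557 without). The share of all genes lowered there was 6.79%. Prc1, which bundles the spindle midzone that Kif4a and Kif23 bind, had a log2 fold change of 0.65 ± 0.12 in somata (adjusted p = 0.0147) and of 1.19 ± 0.14 in processes (adjusted p = 0.0025). Cdk1, the kinase that drives entry into mitosis, had one of 0.98 ± 0.20 in somata (adjusted p = 0.0221) and one of 1.66 ± 0.26 in processes (adjusted p = 0.0069). Tpx2, a spindle assembly factor, rose in somata by 0.74 ± 0.16 (adjusted p = 0.0341), and Top2a and Cenpf rose in processes by 1.02 ± 0.14 (adjusted p = 0.0047) and 1.02 ± 0.19 (adjusted p = 0.0162).

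Summed over the class, mitotic kinesins were at 76.4 ± 3.37 CPM (SD, n = 2) in control somata and 113 ± 19.4 CPM in PTX somata, and at 89.6 ± 16.3 CPM in control processes and 147 ± 5.06 CPM in PTX processes. None of the markers of neural progenitors or of oligodendrocyte precursors, cells that can divide in such cultures, passed the test with PTX in the main model, but with the block the progenitor markers Nes (log2 fold change 0.39, adjusted p = 0.0363) and Vim (0.31, adjusted p = 0.0497) rose in processes and Sox2 (-0.27, adjusted p = 0.0443) fell in somata. The 5 neural progenitor markers summed to 282 and 286 CPM in control and PTX somata and to 469 and 577 CPM in control and PTX processes, where both PTX libraries (565 and 590 CPM) lay above both controls (493 and 445 CPM). In processes 2 of these 5 markers had a fold change above 0, and their median log2 fold change was -0.03. Nes went from 200.1 to 263.5 CPM there and Vim from 205.7 to 253.9 CPM. Means of Sox2, Pax6 and Hes5 in processes were lower with PTX. The 5 markers of oligodendrocyte precursors summed to 305 and 293 CPM in somata and to 453 and 514 CPM in processes. Of the 8 astrocyte markers Gja1 fell in somata (log2 fold change -0.61 ± 0.12, adjusted p = 0.0215), and their sum was 4287 and 3690 CPM in somata and 14130 and 12050 CPM in processes. The 6 neuronal markers had a median log2 fold change of -0.33 in somata, where 1 (Rbfox3) fell, and of -0.38 in processes, where 1 (Slc17a7) rose. Of 3 markers of GABA neurons 2 (Gad1 and Gad2) rose in somata and 1 in processes. Slc32a1 was at 28.7 and 28.2 CPM in control and PTX somata, and its groups overlapped. Among all genes 2.09% were called raised and 1.5% lowered in somata, and 1.64% and 2.1% in processes. With the block 4 of the 6 neuronal markers fell in each compartment. Under that model 7.21% of all genes were raised and 6.79% lowered in somata, and 5.1% and 6.09% in processes. The 5 vascular and fibroblast markers tested summed to 74.2 ± 43.4 and 90.04 ± 38.9 CPM (SD, n = 2) in control and PTX somata. In processes they summed to 45.8 ± 20.6 and 59.3 ± 33.6 CPM, and the groups overlapped in both compartments. Cldn5, not tested, had 0 reads. Among the 5 tested, Dcn (log2 fold change 1.29) and Lum (1.28) were higher in both PTX libraries than in both control libraries of somata. Neither passed (adjusted p = 0.109 and 0.1502). With the block Dcn, Lum and Col3a1 rose in somata (adjusted p = 0.00034, 0.0004 and 0.0151) and Col3a1 in processes (0.0078). In somata Pdgfrb (-0.16) was lower in both PTX libraries and the groups of Col1a1 (0.13) overlapped, and neither passed with or without the block. Microglial markers were below the read limit or not listed, 0 of 8 being tested. The part of these cell types in the rise of the mitotic kinesins was not tested.

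**Figure D2:**
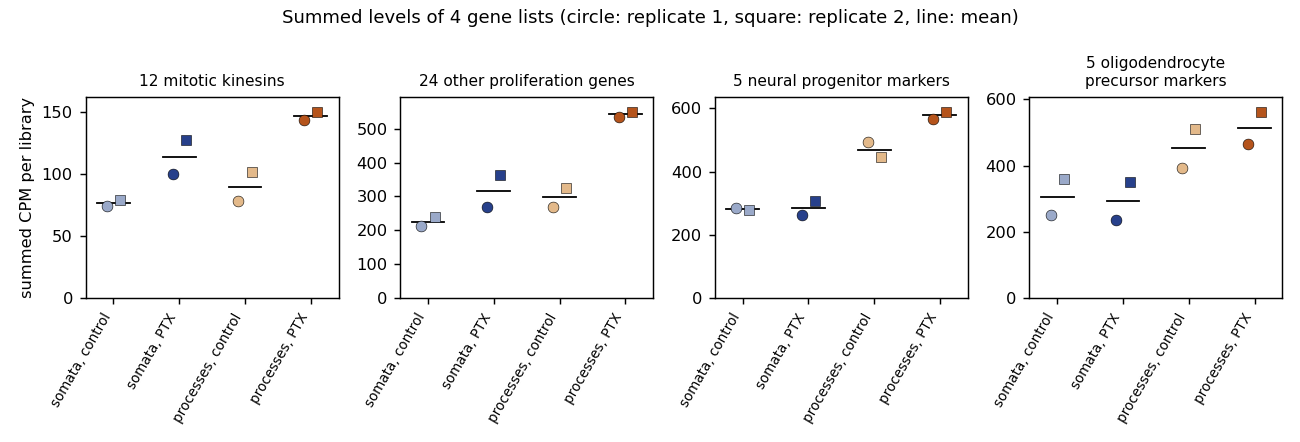
Summed CPM per library of the 12 mitotic kinesins, 24 other proliferation genes, 5 neural progenitor markers and 5 markers of oligodendrocyte precursors; circles and squares are replicates 1 and 2 and lines their mean, on linear axes from 0. Mitotic kinesins go from 76.4 to 113 CPM in somata and from 89.6 to 147 CPM in processes. Progenitor markers stand at 282 and 286 CPM in somata and go from 469 to 577 CPM in processes. There the PTX libraries lie above the controls in this sum, with Nes and Vim higher and Sox2, Pax6 and Hes5 lower in mean.

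Transport kinesins showed no call with PTX. Of the 16 members 0 were called in somata and 0 in processes by edgeR's quasi-likelihood test, and at an unadjusted p under 0.05 there were 0 higher and 2 lower in somata and 2 higher and 1 lower in processes. Of all genes, 8.27% were higher and 7.3% lower at that threshold in somata, and 7.67% and 8.88% in processes. The median log2 fold change of the class was -0.08 in somata and 0.02 in processes, next to -0.01 for all genes. Summed over the 16, their level was 2485 ± 96.3 and 2459 ± 62.7 CPM (SD, n = 2) in control and PTX somata, and 6693 ± 627 and 7197 ± 1029 CPM in control and PTX processes.

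Within the class 4 members were called once the replicate number was held as a block in the model. In somata 0 of the 16 were raised and 3 lowered, next to 7.21% and 6.79% of all genes under that model. In processes 1 was raised and 1 lowered, near the 5.1% and 6.09% of all genes. Kif26b, an atypical kinesin without ATPase activity, was lowered in somata (log2 fold change -0.75, adjusted p = 0.0014 with the block and 0.0697 without) and in processes (-0.69, adjusted p = 0.0024 with the block and 0.0808 without). Kif5a, the neuron-specific heavy chain of conventional kinesin, was lowered in somata with the block (-0.53 without and -0.55 with it, adjusted p = 0.375 and 0.0028). Kif3a, a motor subunit of kinesin-2, was lowered in somata with it (-0.27, adjusted p = 0.0391) and Kif5b, the ubiquitous heavy chain, raised in processes (0.35, adjusted p = 0.0173), neither of which passed without it (adjusted p = 0.240 and 0.179).

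The Kif5 heavy chains, which share light chains and cargo adaptors, stood in other proportions in the 2 libraries of PTX somata than in the 2 of control somata. Kif5a was at 294 and 263 CPM in control somata and at 214 and 171 CPM in PTX somata, and Kif5c at 574 and 516 CPM in control and 651 and 610 CPM with PTX. Neither pair of groups overlapped, a separation found upward for 24.0% of all genes in somata and downward for 3574 of the 14309. The change of Kif5c was not called in somata (log2 fold change 0.21, adjusted p = 0.611 in the main test and 0.195 with the block). Nor was it called in processes (0.31, adjusted p = 0.349 and 0.0588). As a share of Kif5 reads, Kif5a went from 29.6 ± 0.25% to 20.4 ± 2.26% (SD, n = 2) and Kif5c from 57.9 ± 0.46% to 67.1 ± 0.20%, while Kif5b was at 12.5 ± 0.72% and 12.5 ± 2.05%. In processes the share of Kif5a was 29.3 and 22.3% in replicates 1 and 2 of control and 23.8 and 17.5% in those of PTX, lower within each replicate number although the groups overlapped. The share of Kif5c there was 55.4 and 57.6% in control and 59.8% in both PTX libraries, without overlap. No test was made of these shares.

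None of the 10 tested kinesins outside both classes passed with PTX in either compartment. Their log2 fold changes ran from -0.36 for Kif7, a regulator of Hedgehog signalling in the cilium, to 0.36 for Kif24 in somata, and from -0.88 for Kif6 to 0.88 for Kif24 in processes. Kif24, which restrains cilium assembly at the centriole and is expressed in cycling cells, was thus the highest of this class in both compartments. With the block Kifc2, a minus-end motor of neurites, was lowered in processes (-0.40, adjusted p = 0.0292 with the block and 0.407 without).

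**Figure D3:**
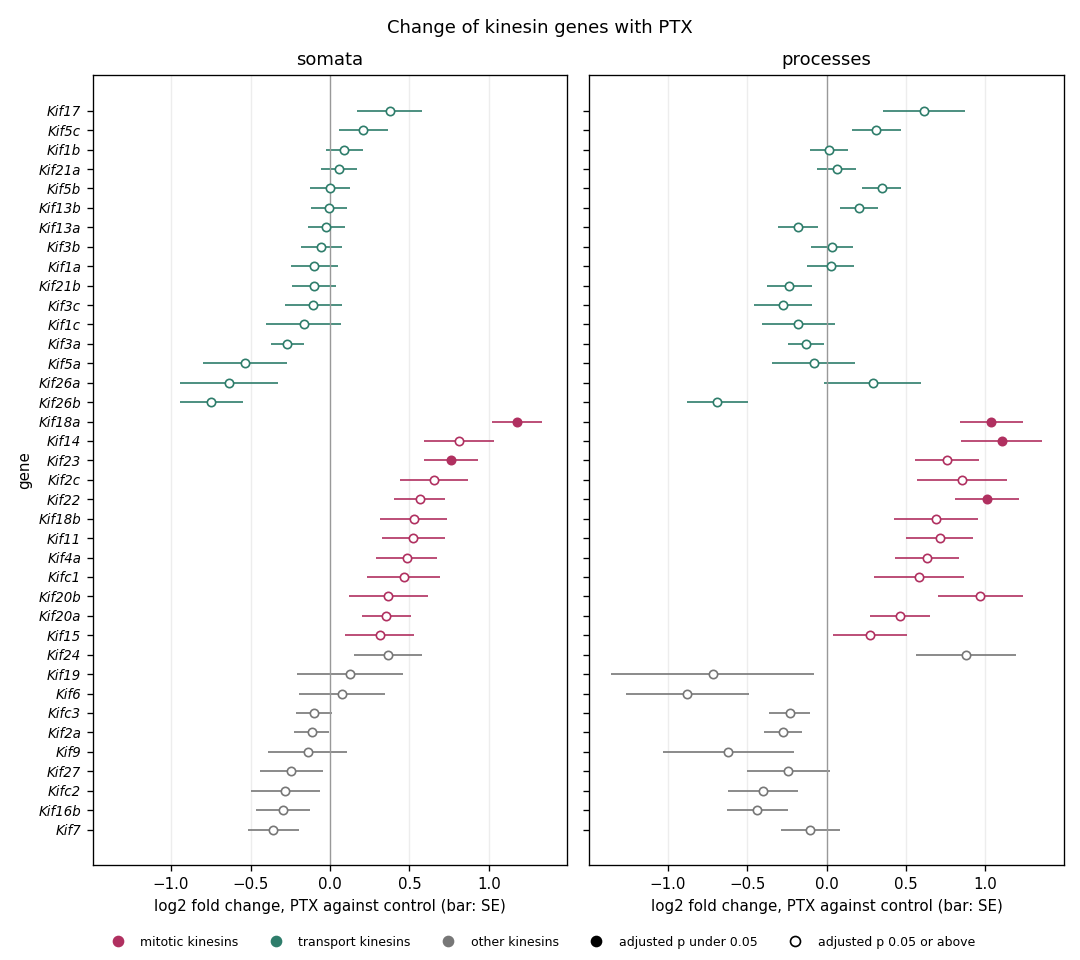
Log2 fold change of PTX against control (x axis, bars are the SE) for the 38 kinesins tested in somata (left) and processes (right), coloured by class; filled points have an adjusted p under 0.05. All 12 mitotic kinesins lie right of 0 in both panels, and the medians of the 16 transport kinesins are -0.08 and 0.02.

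Among the genes that work with kinesins or against them, few were called with PTX in the main test. Of 25 tested members of a list of 26 light chains, adaptors and cargo links, 0 rose and 1 fell in somata. In processes 0 rose and 2 fell. With the block 0 rose and 3 fell in somata, and 5 rose and 4 fell in processes. Of all genes, 2.09% were called raised and 1.5% lowered in somata in the main test, and 1.64% and 2.1% in processes. With the block these shares were 7.21% and 6.79% in somata, and 5.1% and 6.09% in processes. The partners called with the block in processes were thus above the share of all genes in both directions. Sybu (syntabulin), a Kif5b adaptor for presynaptic and mitochondrial cargo, fell in somata by 0.48 ± 0.10 on the log2 scale (adjusted p = 0.0258) and in processes by 0.62 ± 0.12 (adjusted p = 0.0196). Hap1, which links huntingtin to kinesin and dynactin, fell by 0.67 ± 0.15 in processes (adjusted p = 0.0394). Of 25 dynein and dynactin genes, which serve the opposite direction of travel, Ndel1 rose in somata (log2 fold change 0.57 ± 0.11, adjusted p = 0.0173) and 0 were called in processes, where 0 were higher and 2 lower at an unadjusted p under 0.05, next to 7.67% and 8.88% of all genes. With the block 2 of these genes rose and 1 fell in somata, and 0 rose and 1 fell in processes.

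Between compartments it was the transport kinesins that differed most. In control cultures 11 of the 16 were higher in processes and 1 in somata, and 7 of the 11, the atypical Kif26a and Kif26b among them, had a log2 difference above 1. With PTX the counts were 11, 1 and 8. Of all genes, 25.8% were higher in processes and 21.9% in somata in control cultures, and 11.6% were higher in processes with a log2 difference above 1. The corresponding shares in PTX cultures were 25.7%, 24.0% and 11.4%. The class median was 0.86 in control and 0.89 in PTX cultures, with -0.05 over all genes in each. These differences are relative to TMM scaling: scaled by total reads alone the median of all genes was -1.86 in control cultures and that of transport kinesins -0.96, so the class stood 0.90 above the median of all genes by that scaling and 0.91 by TMM.

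Kif1c, a fast motor of dense core vesicles and mRNA, had the highest ratio. Its level was 40.2 and 60.1 CPM in control somata, 35.3 and 54.3 CPM in PTX somata, 365 and 434 CPM in control processes and 303 and 403 CPM in PTX processes. The log2 difference was 2.99 ± 0.25 in control (adjusted p = 5.2e-06) and 2.98 ± 0.25 in PTX cultures (adjusted p = 5.2e-06). Kif5b was at 118 and 116 CPM in control somata, 108 and 127 CPM in PTX somata, 540 and 612 CPM in control processes and 717 and 747 CPM in PTX processes. Its log2 difference was 2.29 ± 0.13 in control (adjusted p = 8e-07) and 2.64 ± 0.13 in PTX cultures (adjusted p = 5.3e-07). Process libraries lay above somatic libraries throughout for both genes, and their direction was the same in both kinds of culture under every scaling tried.

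The other Kif5 heavy chains and Kif1a followed. Kif5a was at 1033 and 675 CPM in control processes and 1040 and 575 CPM in PTX processes, a log2 difference from somata of 1.62 ± 0.27 in control and 2.07 ± 0.27 in PTX cultures. Kif5c was at 1950 and 1747 CPM in control processes and 2618 and 1970 CPM in PTX processes, a log2 difference of 1.76 ± 0.16 and 1.86 ± 0.16. Kif1a, the motor of synaptic vesicle precursors, was at 452 and 452 CPM in control somata, 420 and 424 CPM in PTX somata, 1608 and 1291 CPM in control processes and 1648 and 1304 CPM in PTX processes, a log2 difference of 1.68 ± 0.15 and 1.81 ± 0.15. Every adjusted p of these 3 genes was 0.000644 or lower, and no process library overlapped a somatic one. Scaled by total reads alone their differences were -0.21, -0.05 and -0.14 in control cultures, against the median of all genes of -1.86.

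Kif26b was at 7.01 and 5.72 CPM in control somata, 3.99 and 3.56 CPM in PTX somata, 25.3 and 18.7 CPM in control processes and 15.04 and 12.4 CPM in PTX processes. Its log2 difference was 1.79 ± 0.19 in control (adjusted p = 2.7e-05) and 1.85 ± 0.20 in PTX cultures (adjusted p = 3.4e-05). All process libraries of Kif26b lay above all somatic ones. Kif26a, its paralog, was at 3.66 and 7.44 CPM in control somata, 2.95 and 4.28 CPM in PTX somata, 11.7 and 12.2 CPM in control processes and 16.99 and 12.4 CPM in PTX processes, again with no somatic library reaching the level of a process library. The log2 difference of Kif26a was 1.10 ± 0.31 in control (adjusted p = 0.0132) and 2.03 ± 0.31 in PTX cultures (adjusted p = 0.000368), and the interaction of 0.92 ± 0.44 did not pass (adjusted p = 1). Kif13b, a motor for phosphoinositide-bearing vesicles, was at 19.5 and 20.2 CPM in control somata, 18.3 and 21.3 CPM in PTX somata, 34.8 and 36.5 CPM in control processes and 42.0 and 40.0 CPM in PTX processes. Its log2 difference was 1.05 ± 0.12 in PTX cultures and 0.85 ± 0.12 in control cultures, and the interaction did not pass (adjusted p = 1). Leaving out 1 library ended none of the calls of transport kinesins with a log2 difference above 1 except that of Kif26a in control cultures, which had adjusted p = 0.0673 without replicate 1 of control somata (log2 difference 0.69), 0.0548 without replicate 1 and 0.0672 without replicate 2 of control processes.

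**Figure D4:**
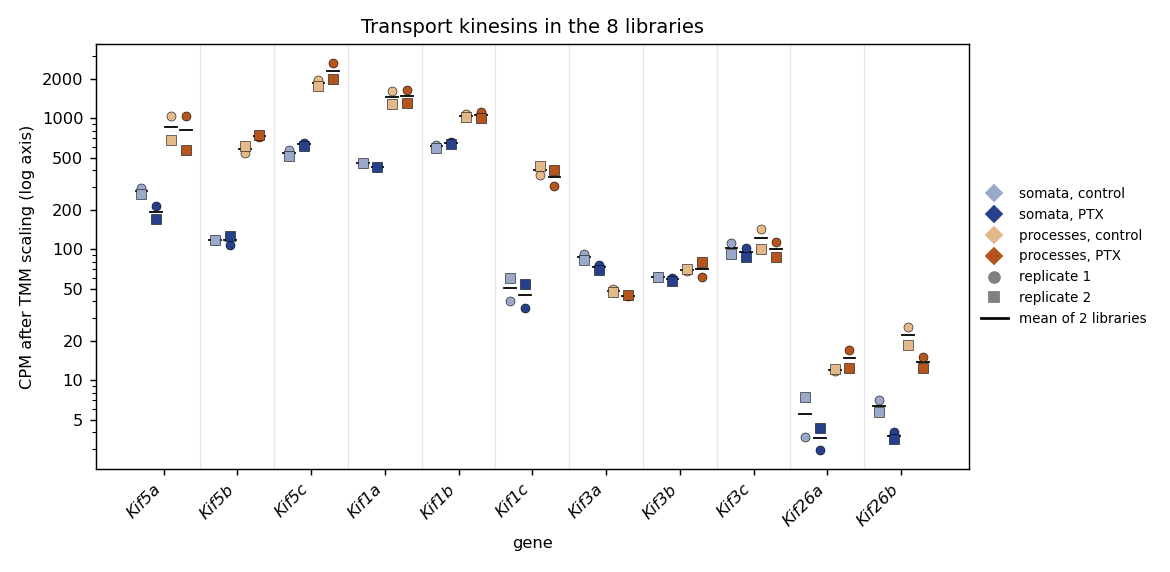
Level of the Kif5, Kif1, Kif3 and Kif26 members (CPM after TMM scaling, log axis) in the 8 libraries; circles are replicate 1, squares replicate 2, and lines the mean of 2 libraries. Kif5, Kif1 and Kif26 members are higher in processes at this scaling, a direction that of these only Kif1c and Kif5b keep in control cultures when scaled by total reads alone (median of all genes -1.86), while Kif3a goes from 92.3 and 82.3 CPM in control somata to 49.4 and 47.2 CPM in control processes.

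Kif3a, Kif3b and Kif3c, the motor subunits of heterotrimeric and related kinesin-2, did not share 1 pattern. Kif3a was the only transport kinesin called higher in somata, at 92.3 and 82.3 CPM in control somata against 49.4 and 47.2 CPM in control processes (log2 difference -0.85 ± 0.11, adjusted p = 0.000121), and at 76.1 and 68.8 against 43.5 and 44.8 CPM in PTX cultures (-0.71 ± 0.11, adjusted p = 0.000388). Kif3b (0.17 ± 0.13) and Kif3c (0.24 ± 0.18) did not pass in control cultures, nor in PTX cultures, although with the block Kif3c passed in control (adjusted p = 0.0377) and Kif3b in PTX cultures (adjusted p = 0.0358), and Kif3c turned to -0.03 without replicate 1 of control processes. As a share of Kif3 reads Kif3a was 34.8 ± 0.15% in control somata and 20.4 ± 1.84% in control processes (SD, n = 2). The remaining members called higher in processes in both kinds of culture were Kif1b, Kif13a and Kif21b, with log2 differences of 0.61 to 0.87, and Kif17 and Kif21a passed in neither.

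Mitotic kinesins were spread over both compartments. In control cultures 2 of the 12 were higher in processes (Kif15 and Kif4a, log2 difference 0.80 each, adjusted p = 0.0153 and 0.0081) and 0 in somata, with a class median of 0.01. Of all genes, 25.8% were called higher in processes and 21.9% in somata, so the class was below the share of all genes in both directions. In PTX cultures 5 were higher in processes (Kif11, Kif14, Kif15, Kif20b and Kif4a) and 0 in somata, with a median of 0.07. The shares of all genes there were 25.7% and 24.0%. Kif20b was at 5.40 and 5.64 CPM in control somata, 6.65 and 7.62 CPM in PTX somata, 5.58 and 11.98 CPM in control processes and 16.7 and 17.5 CPM in PTX processes, a log2 difference of 1.26 ± 0.25 in PTX cultures (adjusted p = 0.0017). Its 2 control process libraries differed by more than the groups did, and its difference of 0.66 ± 0.27 in control cultures did not pass (adjusted p = 0.0672, and 0.0099 with the block). In control cultures Kif11 (0.54 ± 0.21, adjusted p = 0.0544), Kif20a (-0.45 ± 0.18, adjusted p = 0.0593) and Kif22 (-0.49 ± 0.20, adjusted p = 0.0621) did not pass in the main model but did with the block (adjusted p = 0.0075, 0.0252 and 0.0267), and Kif11 also passed without replicate 1 of control processes or either PTX library of somata (0.0231 to 0.0403) and Kif20a without replicate 2 of control processes (0.0492). Leaving out 1 library ended the call of Kif15 in control cultures for each of the 4 control libraries (adjusted p 0.0529 to 0.0804) and that of Kif4a without replicate 2 of control processes (adjusted p = 0.103), and in PTX cultures replicate 1 of somata ended those of Kif11, Kif14 and Kif15 (0.0796, 0.162 and 0.112), replicate 1 of processes those of Kif11 and Kif14 (0.0756 and 0.110), and replicate 2 of processes those of Kif14 and Kif15 (0.0702 and 0.170).

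The direction of this class between compartments depends on the scaling. Scaled by the reads of nuclear genes alone the class median was -0.45 in control and -0.39 in PTX cultures, where the median of all genes was -0.51 in each. Relative to the median of all genes mitotic kinesins stood 0.06 higher in control and 0.12 higher in PTX cultures by TMM and by this scaling alike.

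Among the other kinesins Kif24 and Kif9 were lower in processes in control cultures, and Kif19 and Kif9 in PTX cultures. Kif19, which shortens motile cilia, was at 2.21 and 1.37 CPM in control somata, 1.91 and 1.99 CPM in PTX somata, 1.12 and 0.470 CPM in control processes and 0.574 and 0.402 CPM in PTX processes. Its log2 difference was -1.15 ± 0.46 in control (adjusted p = 0.0603, and 0.0248 with the block) and -1.99 ± 0.50 in PTX cultures (adjusted p = 0.0069). Every process library of Kif19 was below every somatic one. Kif24 was at 3.83 and 3.21 CPM in control somata, 4.67 and 4.36 CPM in PTX somata, 2.01 and 1.29 CPM in control processes and 2.87 and 3.22 CPM in PTX processes, with a log2 difference of -1.08 ± 0.28 (adjusted p = 0.0096) in control and -0.57 ± 0.25 (adjusted p = 0.0779, and 0.0469 with the block) in PTX cultures. Kif9, a kinesin of motile cilia, was at 3.36 and 2.51 CPM in control somata, 2.84 and 2.46 CPM in PTX somata, 1.67 and 1.29 CPM in control processes and 1.03 and 0.905 CPM in PTX processes. Its log2 difference was -0.97 ± 0.32 in control (adjusted p = 0.0261) and -1.45 ± 0.34 in PTX cultures (adjusted p = 0.0049). Somatic and process libraries of the same kind of culture did not overlap for any of these 3 genes, and Kif19 rested on 35 to 53 reads in somata and 4 to 10 in processes. The call of Kif19 in PTX cultures was lost without replicate 2 of PTX processes (adjusted p = 0.0615), and in control cultures those of Kif24 and Kif9 were lost without replicate 1 of somata (0.0556 and 0.147) or replicate 2 of processes (0.0802 and 0.138), and that of Kif9 also without replicate 1 of processes (0.0544). The 4 tested markers of ciliated ependymal cells summed to 38.1 and 38.9 CPM in control and PTX somata and to 19.0 and 14.6 CPM in processes, and their part in the values of Kif9 and Kif19 was not tested.

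Kifc2 (0.87 ± 0.22), the microtubule depolymerase Kif2a (0.59 ± 0.11) and Kif16b (0.57 ± 0.18) were called higher in processes in control cultures, and the first 2 of these in PTX cultures as well. Without replicate 1 of control processes Kifc2 and Kif16b had adjusted p = 0.0969 and 0.214, Kif16b was lost without either control library of somata too (0.111 and 0.0551), and in PTX cultures Kifc2 and Kif2a were lost without replicate 1 of processes (0.154 and 0.0616), Kifc2 without replicate 2 of somata (0.0653) and Kif2a without replicate 1 of somata (0.0541). Kif6, Kif7, Kif27 and Kifc3 passed in neither kind of culture. With the block Kif27 was lower in processes in both (adjusted p = 0.0142 in control and 0.0172 in PTX cultures), Kif6 lower in PTX cultures (adjusted p = 0.0432), and Kif16b higher in PTX cultures (adjusted p = 0.0357).

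Glial and neuronal markers moved between compartments too. Gfap, S100b and Nes, which mark astrocytes and progenitors, were higher in control processes by 2.61, 2.16 and 2.35 on the log2 scale. Of the 6 neuronal markers 2 were higher in control processes (Map2, whose RNA is dendritic, by 2.30, and Rbfox3 by 0.52) and 4 lower (Snap25, Syt1, Tubb3 and Slc17a7, by -0.37 to -0.98), with a median of -0.47. Of the 8 astrocyte markers 4 were higher in control processes and 2 (Slc1a3 and Gja1) lower. The 8 summed to 4287 CPM in control somata and 14130 CPM in control processes. Among all genes tested, 25.8% were called higher in processes and 21.9% in somata in control cultures. The 6 neuronal markers summed to 1942 CPM in control somata and 5236 CPM in control processes. Gfap made up 1685 and 10250 CPM of the astrocyte sums, and Map2 made up 936 and 4609 CPM of the neuronal sums. How far glial RNA takes part in the process values of kinesins that are not neuron-specific, such as Kif1c and Kif5b, was not tested.

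**Figure D5:**
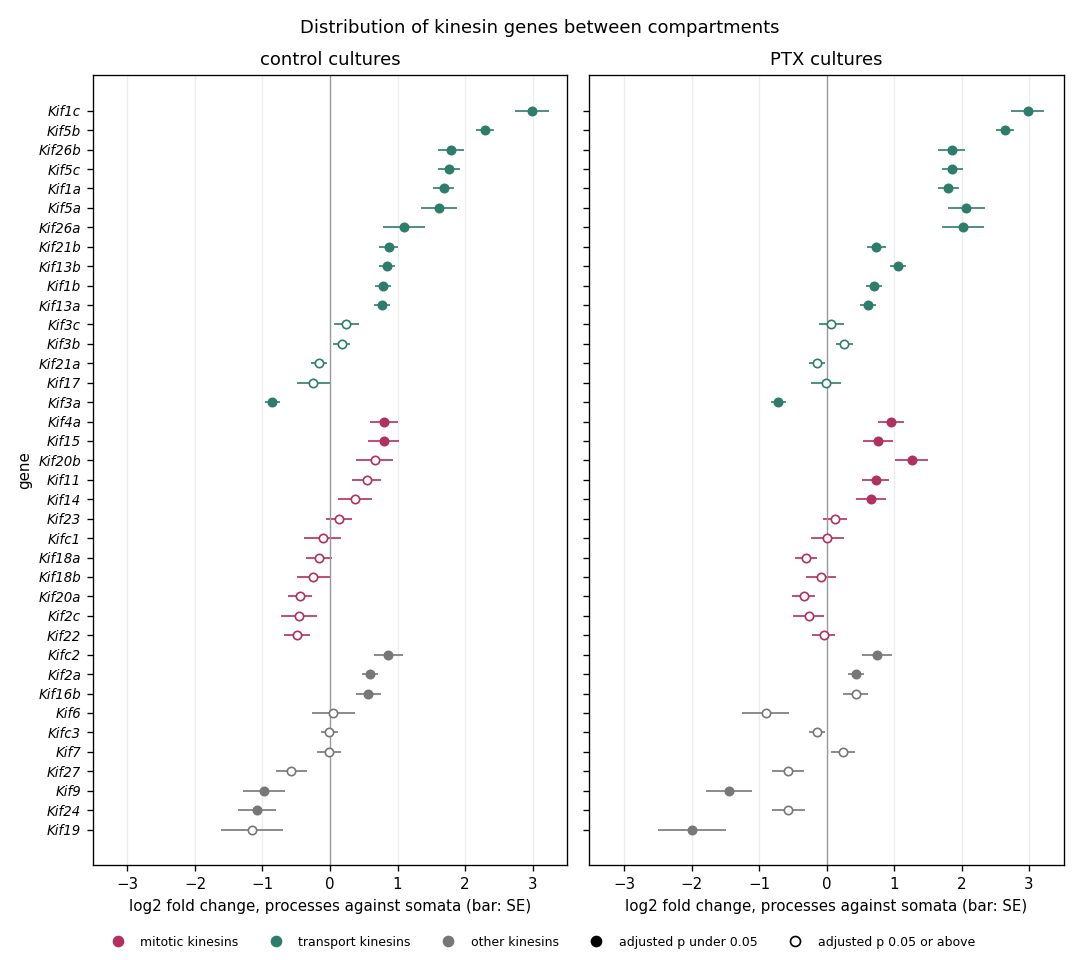
Log2 difference of processes against somata (x axis, bars are the SE) for the 38 kinesins tested in control (left) and PTX cultures (right), coloured by class, with filled points at an adjusted p under 0.05. Transport kinesins reach 2.99 (Kif1c), the median of the mitotic class is 0.01 in control cultures, and with scaling by total reads alone, which moves the median of all genes from -0.05 to -1.86 in control cultures, only Kif1c and Kif5b of the 38 lie above 0 there.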

How the data were processed

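Ribosome-depleted RNA of 8 libraries (4 conditions of 2) was measured with a directional kit. The authors deposited raw read counts per gene symbol; the submitters' processing notes name STAR, featureCounts, edgeR and the build Rnor_6.0, whereas the methods name a Subread aligner, and the strand setting of the counting is not given in the sources used here. Deposited tables of the authors' own differential tests (fold changes and p-values) were not used. Samples were grouped by compartment and treatment from their labels.

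Genes above 20 reads in 2 or more libraries (14309 of 28909) were scaled by TMM and fitted in edgeR 4.0.16 (R 4.3.3) with 1 coefficient per condition over all 8 libraries. Contrasts used the two-sided quasi-likelihood test with Benjamini-Hochberg adjustment over all genes tested. SE was taken as the size of the log2 fold change over the root of the F statistic. The scripts were tested on simulated data.

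Reads per library ran from 12290890 to 18455662. Values in the text were chosen by rule: every library is given for members called with PTX, or called between compartments with a log2 difference beyond 1 in size; of each list, members called with PTX are named, at most 4 per contrast by p. The kinesins, their classes and the lists were chosen with earlier results of these data known. Genes singled out beyond that rule (Kif15, Kif20b, Kif24 and those named under the block or without a library) were chosen after their values were seen.

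Replicate numbers come from the labels. Differences between replicate 2 and replicate 1 correlated across genes between all 6 pairs of conditions (r = 0.274 to 0.54), so the numbers were taken to pair the samples, although no label says what they share. Replicates of a condition differed by more than counting noise (chi-square per degree of freedom 9.12 to 22.8). Other settings tried were DESeq2 1.42.0, a likelihood ratio test, other scalings and filters, the replicate block, thresholds, and leaving out each library. Scaling by nuclear reads was added after seeing the data.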

Additional observations from a re-analysis of the deposited data

How the results depend on the processing

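The median of the mitotic kinesins with PTX kept its direction under each alternative, while the number of calls did not hold. With PTX in somata 2 kinesins were called in the main analysis, 5 by the likelihood ratio test, 1 by DESeq2, 9 with no filter, 11 with the replicate block, 5 at an adjusted p under 0.1 and 1 under 0.01, and 1 to 3 when 1 library was left out. In processes 3 were called in the main analysis, 7 by the likelihood ratio test, 8 with no filter, 11 with the replicate block, 6 at an adjusted p under 0.1 and 0 under 0.01, and 0 to 3 when 1 library was left out, the 0 arising without replicate 1 of control processes or either PTX library of processes. A lone library of a condition was then assumed to vary like the others. DESeq2 called 4 kinesins with PTX in processes, while scaling by total reads only and fitting only the libraries compared called 2 each. The cause of these shifts was not tested, beyond the fewer samples where 1 library was left out. The median of the mitotic class with 1 library left out was 0.34 to 0.68 in somata and 0.54 to 0.95 in processes, and that of its interaction -0.0067 to 0.38. The transport median in somata was -0.0090 when scaled by total reads only, and its interaction median ran from -0.041 to 0.17 over the libraries left out, below 0 without replicate 1 of PTX processes. With 2 libraries a condition and few reads per mitotic kinesin, depth limits single genes.

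Differences between compartments depended on the scaling. Scaled by total reads only, 34 kinesins were called in control and 32 in PTX cultures instead of 19 and 21, where 94.1% and 94.3% of all genes were called. The transport median was then -0.96 and -0.93 and the mitotic median -1.79 and -1.75, beside -1.86 and -1.87 for all genes. By upper quartiles the transport median was 0.65 and 0.72 and the mitotic median -0.19 in control cultures. By nuclear reads the transport median was 0.40 and 0.44 and the mitotic median -0.45 and -0.39. Without 1 library the counts were 14 to 20 and 17 to 21, and the mitotic median was -0.053 to 0.26 and -0.08 to 0.27. By total reads only, these kinesins turned from above to below 0 in control cultures: Kif11 to -1.25, Kif13a -1.04, Kif13b -0.96, Kif15 -1.01, Kif16b -1.25, Kif1a -0.14, Kif1b -1.03, Kif20b -1.13, Kif21b -0.95, Kif26a -0.71, Kif26b -0.029, Kif2a -1.21, Kif3c -1.58, Kif4a -0.99, Kif5a -0.21, Kif5c -0.049 and Kifc2 -0.96. In PTX cultures Kif11 turned to -1.10, Kif13a -1.21, Kif13b -0.78, Kif14 -1.17, Kif15 -1.06, Kif16b -1.40, Kif1a -0.031, Kif1b -1.13, Kif20b -0.56, Kif21b -1.09, Kif2a -1.39, Kif3b -1.56, Kif4a -0.87 and Kifc2 -1.09. By nuclear reads Kif3c turned to -0.22 in control cultures, and Kif16b to -0.024, Kif2a to -0.019 and Kif3b to -0.19 in PTX cultures, and Kif3c ran from -0.031 (without replicate 1 of control processes) to 0.47 with 1 library left out. The replicate block changed the call of no other kinesin than those given with it above.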
